A study of Mus musculus with 2 samples.

Results

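The genes described here are 40 proliferation and cell cycle genes, chosen by name, of 32285 genes in the count files of 2 single-cell RNA sequencing libraries of mouse lung. All 40 have an entry in those files. They fall into 5 D-type cyclins and partner kinases (Ccnd1, Ccnd2, Ccnd3, Cdk4, Cdk6), 2 E-type cyclins (Ccne1, Ccne2), 11 genes of DNA replication, 19 genes of mitosis, and Stmn1, Hmgb2 and Lmnb1. For each cell class and library, unique molecular identifiers (UMIs, 1 per captured transcript molecule) were summed for each gene, and cells with at least 3 of the listed genes detected were counted.

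A cell enters the division cycle when growth signals raise the D-type cyclins, which with Cdk4 and Cdk6 inactivate the retinoblastoma proteins and release E2F transcription factors. E2F factors then switch on the E-type cyclins and the replication genes of S phase, and the genes of mitosis follow in G2 and M phase under control of the MuvB complex with B-Myb and FoxM1. Resting cells keep D-type cyclins and their kinases but hold the mitotic genes silent, so that transcripts of several mitotic genes together in a cell mark division far more narrowly than a D-type cyclin does. In the mouse lung, fibroblasts and alveolar type 2 (AT2) cells divide in the days after birth, and division wanes as the alveolar walls thin and mature.

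The study asked how Hhip, a secreted inhibitor of hedgehog ligands, acts in the lung mesenchyme after birth. The libraries were control and Gli1_HHIPCKO, from 1 mouse each at postnatal day 14, both of genotype Gli1creERT/+ : Hhipflox/flox. The control mouse received oil and the Gli1_HHIPCKO mouse tamoxifen just after birth. Both mice therefore carry the floxed Hhip alleles and 1 Gli1 allele with the Cre insertion, and tamoxifen itself cannot be told apart from the deletion it induces. Recombination is limited to cells that expressed Gli1, a hedgehog target of mesenchymal cells, at the time of tamoxifen. Mesenchymal cells negative for CD45, CD31 and CD326 and epithelial cells were sorted and mixed at 3:1 before loading, so that blood and endothelial cells are those the sort let through.

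The control library held 10999 cell barcodes and 43291709 UMIs, and 10917 cells were kept after filtering. The Gli1_HHIPCKO library held 12350 barcodes and 52338969 UMIs, of which 12115 cells were kept. Median depth was 3531 UMIs and 1564 genes per cell in the control and 3720 UMIs and 1699 genes in Gli1_HHIPCKO, and 193 barcode sequences occurred in both libraries. Each condition is a lone mouse and gives no spread between replicates, so every interval given is a 95% interval for counting error only and no difference was tested between mice. The mice also differed in sex-linked transcripts. In myofibroblasts Xist, the X-inactivation RNA, was at 0 counts per 1000000 UMIs (CPM) in the control and 315 CPM in Gli1_HHIPCKO, and the Y-linked Ddx3y was at 50.6 and 0 CPM. Sex and treatment therefore cannot be told apart here.

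Cells were grouped into 33 clusters without use of the 40 genes, and a cluster was named only where marker genes of a lung cell type led it. The classes used most are alveolar myofibroblast-like cells (ALMF-like, 933 control and 212 Gli1_HHIPCKO cells), ductal myofibroblast-like cells (DMF-like, 1450 and 1929), alveolar fibroblast-like cells (575 and 1975), pericyte-like cells (508 and 858), adventitial fibroblast-like cells (752 and 798), mesothelial-like cells (305 and 311) and AT2-like cells (2970 and 2805). The DMF-like class joins a cluster of 1329 control and 40 Gli1_HHIPCKO cells to a cluster of 121 and 1889 cells, and the AT2-like class joins clusters of 2406 and 860 and of 564 and 1945 cells. Since the libraries separate within these classes, ratios are also given for the myofibroblast group, which joins the ALMF-like and DMF-like cells and a cluster led by Socs3, Egr1 and Junb (2841 and 2736 cells). In that group Hhip was at 1116 CPM in the control and 303 CPM in Gli1_HHIPCKO, a log2 ratio of −1.88 (interval −1.94 to −1.82), and whether the captured tags lie in the deleted part of the gene is not known here. Gli1, the transcription factor whose level reports hedgehog signalling, was at 4.86 and 27 CPM there (log2 ratio 2.47, interval 1.99 to 2.99). These differences were not even over the group. In DMF-like cells the ratios were −2.31 for Hhip and 2.82 for Gli1, while in ALMF-like cells Hhip was at 223 and 146 CPM (−0.61, interval −0.93 to −0.30) and Gli1 at 5.26 and 5.94 CPM (0.18, interval −1.87 to 1.83), so a Gli1 difference was not detectable there. All log2 ratios are Gli1_HHIPCKO over control.

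Cells with transcripts of several mitotic genes at once were rare and sat mainly among blood cells. A cell with at least 3 of the 19 mitotic genes is called a mitotic-gene cell here. There were 229 such cells among 10917 in the control (2.10%, Clopper-Pearson interval 1.84 to 2.38%) and 121 among 12115 in Gli1_HHIPCKO (0.999%, 0.829 to 1.19%). Of the control cells, 136 belonged to immune clusters and 50 to red cell clusters. Of the Gli1_HHIPCKO cells, 45 were immune and 65 were of the red cell lineage. The mesenchyme, which holds the Gli1-expressing cells that tamoxifen targets, held 26 of the control and 5 of the Gli1_HHIPCKO mitotic-gene cells.

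A pair of small clusters consisted of such cells throughout. A cluster led by replication-dependent histone genes with lymphocyte markers (55 control and 19 Gli1_HHIPCKO cells) and a cluster led by Rhd, a red cell surface protein gene, and histone genes (30 and 42 cells) had at least 3 mitotic genes in 100% of their cells in both libraries. After thinning each cell of at least 2000 UMIs to 2000 UMIs, to set depth equal, their shares were still 94.4% and 89.5% for the former and 100% and 90.0% for the latter. Lymphocyte-like cells outside that cluster were mitotic-gene cells in 12.0% (control) and 8.33% (Gli1_HHIPCKO) of cells, and after thinning in 16.7% and 17.9%. In the whole immune lineage the share was 24.6% in the control (21.1 to 28.5%) and 17.6% in Gli1_HHIPCKO (13.1 to 22.8%), with median depths of 2089 and 1970 UMIs. In the red cell lineage it was 20.2% and 26.6%.

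Immune and red cell lineages made up 7.33% of control and 4.13% of Gli1_HHIPCKO cells, yet supplied 76.7% and 76.8% of all mitotic-gene UMIs. Their part was 44.6% and 36.5% of replication-gene UMIs and 10.7% and 6.31% of those of the D-type cyclins and kinases. A sum over the whole library therefore reads blood cells first for the mitotic genes, and blood cells were a smaller part of the Gli1_HHIPCKO library. Over all cells the summed mitotic genes stood at 214 CPM in the control and 109 CPM in Gli1_HHIPCKO (log2 ratio −0.97, interval −1.01 to −0.92). With the immune and red cell lineages taken out, a step chosen after the data were seen, the median log2 ratio of the 19 mitotic genes was −1.09, against −1.04 with them. Over all cells 17 of the 19 were lower past 1.5-fold and none higher, where 8.87% of 13927 genes with at least 100 UMIs were lower and 5.46% higher. Without those lineages 12 of the 19 reached 100 UMIs, and of these 9 were lower and none higher, where 7.09% of 13575 genes were lower and 5.44% higher. These 9 calls are not independent of each other, since part of the UMIs lay in few cells. In the control, 12 mesothelial-like cells held 642 mitotic-gene UMIs, 312 of them in 2 cells. Of the 398 control Mki67 UMIs left, 220 lay in the myofibroblast group.

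Among the sorted lung cell types, mesothelial-like cells, which cover the lung surface, held the largest control share of mitotic-gene cells of the 7 classes named above. There were 12 of 305 control cells (3.93%, 2.05 to 6.77%) and 1 of 311 Gli1_HHIPCKO cells (0.322%, 0.0081 to 1.78%). A further cluster led by Slurp1 and Msln scored highest for mesothelial markers but was given no name or lineage. It held 0 mitotic-gene cells of 34 in the control and 1 of 37 in Gli1_HHIPCKO, which the class counts leave out. Median depth in this class was 3580 UMIs in the control and 2535 in Gli1_HHIPCKO, and thinned to 2000 UMIs the counts were 10 of 233 (2.08 to 7.75%) and 1 of 192 (0.0132 to 2.87%). At equal depth these intervals overlap. Without likely doublets the Gli1_HHIPCKO share was 0%, and the control share stayed within its counting interval. Of the 12 control cells, 9 had 6 or more of the 19 genes, up to 17, and 3 had 4 genes. The Gli1_HHIPCKO cell had 16. In the control, 642 of the 675 mitotic-gene UMIs of this class lay in the 12 cells, 312 of them in 2 cells, and in Gli1_HHIPCKO 97 of 114 lay in the 1 cell. All 12 control cells and the Gli1_HHIPCKO cell had UMIs of the mesothelial markers Msln and Upk3b, and none had Ptprc, the gene of CD45. Their median depth in the control was 6339.5 UMIs, against 3550 in the other cells of the class.

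Adventitial fibroblast-like cells, of the sheaths around vessels and airways, came next of those 7 classes, with 10 of 752 control cells (1.33%, 0.640 to 2.43%) and 2 of 798 Gli1_HHIPCKO cells (0.251%). Thinned to 2000 UMIs the counts were 4 of 605 and 1 of 613, and thinned to 1000 UMIs 1 of 705 and 2 of 744, so the direction is not held at lower depth. Summed mitotic UMIs ran the other way in this class, at 57.8 CPM in the control and 93.6 CPM in Gli1_HHIPCKO, because 223 of the 271 Gli1_HHIPCKO UMIs came from 1 cell that had all 19 genes. The AT2-like class, whose cells make surfactant and renew the alveolar epithelium, had 7 of 2970 cells in the control (0.236%, 0.0948 to 0.485%) and 2 of 2805 in Gli1_HHIPCKO (0.0713%, 0.0086 to 0.257%). In the mostly control cluster of this class the counts were 7 of 2406 and 1 of 860. In its other cluster they were 0 of 564 and 1 of 1945, so the lower Gli1_HHIPCKO share was seen in the former alone. Cells of the airway cluster, marked by Scgb1a1 and Foxj1, were at 1.37% and 1.42%.

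The myofibroblast and alveolar fibroblast classes held almost none. No ALMF-like cell qualified among 933 in the control, which by the 3-count floor allows a share of up to 0.322%, or among 212 in Gli1_HHIPCKO, which allows up to 1.42%. DMF-like cells gave 3 of 1450 in the control (0.207%) and 0 of 1929 in Gli1_HHIPCKO (up to 0.156%). Alveolar fibroblast-like cells gave 0 of 575 (up to 0.522%) and 0 of 1975 (up to 0.152%). Red cells and ciliated airway cells had been meant as the background for free RNA, but red cell-like cells had shares of 9.17% and 11.4%, with Ube2c in 70.6% of the control cells, and the airway cluster held mitotic-gene cells of its own. Pericyte-like cells were therefore taken as the low background after the data were seen, with 0 of 508 (up to 0.591%) and 1 of 858 (0.117%), at lower median depths of 1907 and 1981.5 UMIs. The shares in ALMF-like, DMF-like and alveolar fibroblast-like cells lay within what the pericyte-like counts allow, apart from the ALMF-like Gli1_HHIPCKO limit, which is wide. Pericyte-like cells were picked with their low share known, so this likeness is no independent support. They are not an untouched reference either, with Hhip at 123 CPM in the control and 43.0 CPM in Gli1_HHIPCKO. No difference between libraries was detectable in ALMF-like, DMF-like or alveolar fibroblast-like cells at this cut of 3 genes. With at least 1 mitotic gene, a cut that Mki67 alone can meet, the DMF-like share was 10.1% in the control (8.63 to 11.8%) and 5.60% in Gli1_HHIPCKO (4.62 to 6.72%), beside 4.72% and 5.48% in pericyte-like cells. For the whole mesenchymal lineage the share was 0.467% in the control (0.305 to 0.683%) and 0.0679% in Gli1_HHIPCKO (0.0220 to 0.158%), and at equal depth 16 of 4289 and 4 of 5549 cells. Of the 26 control cells, 12 were mesothelial-like and 10 adventitial fibroblast-like, and of the 5 Gli1_HHIPCKO cells 1 and 2.

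**Figure D1:**
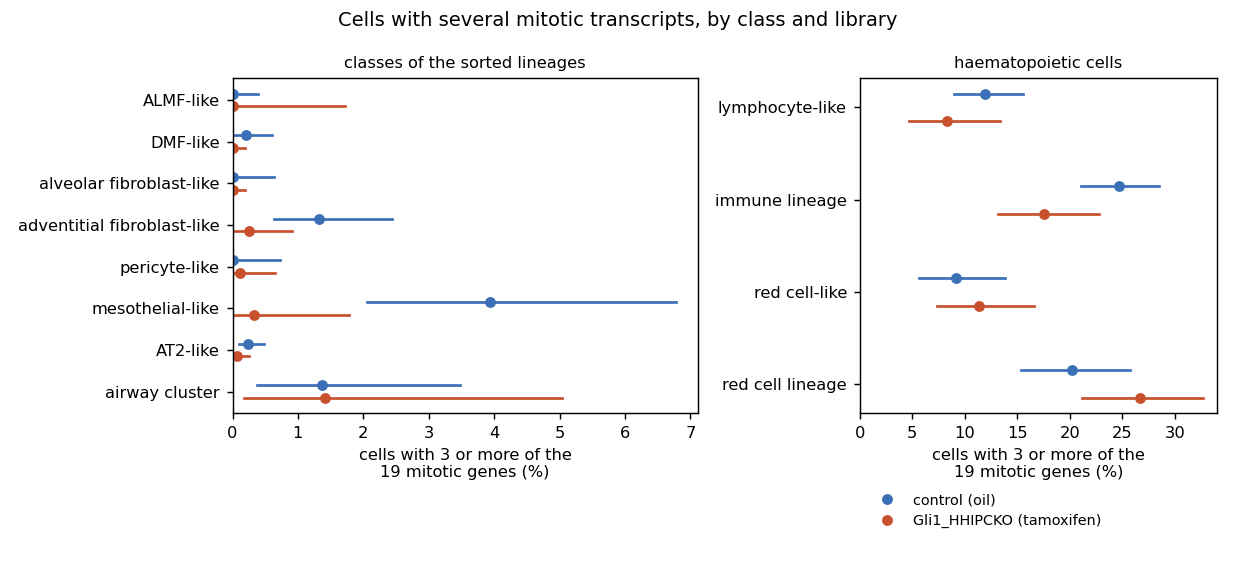
Share of cells (percent) with at least 3 of the 19 mitotic genes detected, by cell class and library, with 95% Clopper-Pearson intervals. Mesothelial-like cells stand at 3.93% in the control and 0.322% in Gli1_HHIPCKO, and ALMF-like cells had no such cell in either library.

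The mitotic list holds the cyclins A2, B1 and B2 with Cdk1, whose complexes start mitosis, the spindle checkpoint genes Bub1 and Bub1b, the mitotic kinases Aurka, Aurkb and Plk1, and genes of chromosomes and spindle such as Top2a, Cenpa, Cenpe, Cenpf, Birc5, Ube2c and Prc1. Of the 40 listed genes, 20 reached 100 UMIs over both libraries in at least 1 of the 7 classes, and ratios by class are given for those, with counts where a gene had fewer. Of the 19 mitotic genes, 5 did so (Mki67, Cenpf, Cenpa, Ube2c and Prc1), each in 1 class. The other 14 stayed under that count in each of the 7 classes. Blood cells gave between 43.6% (Bub1) and 90.3% (Ccna2) of the control UMIs of the mitotic genes.

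In mesothelial-like cells the mitotic genes were lower in Gli1_HHIPCKO, with their sum at 573 CPM in the control and 114 CPM in Gli1_HHIPCKO (log2 ratio −2.33, interval −2.63 to −2.04). Ube2c, which encodes the ubiquitin-conjugating enzyme of the anaphase-promoting complex, was at 115 and 16.0 CPM (−2.85) in 10 and 2 cells, a ratio that moved to −5.19 without likely doublets. Cenpf, a kinetochore protein gene, was at 83.2 and 21.0 CPM (−1.99) in 13 and 1 cells, and at −2.85 as a mean over cells. These ratios rest on few cells, and cells, not molecules, set how well they are known. Markers of AT2 cells also differed in this class, with the 10 AT2 markers summing to 7485 CPM in the control and 1744 CPM in Gli1_HHIPCKO, mostly from Sftpc (6255 and 1311 CPM), and none of the 10 at 0. Within the control class the AT2 markers were at 20500 CPM in the 12 mitotic-gene cells and 6619 CPM in the others. Sftpc was at 19044 and 5403 CPM, but 1327 of its 1400 UMIs in the 12 cells lay in 1 cell, and the median per cell was 1215 CPM in the 12 and 1625 CPM in the others. Of the 5969 Sftpc UMIs in those other control cells, 1703 lay in 1 cell. The median per cell was 1440 CPM in the Gli1_HHIPCKO cells apart from the mitotic-gene cell, which had 2 Sftpc UMIs. Epcam, an epithelial surface marker, gave 54 and 7 UMIs, and 41 of the control UMIs lay in 1 of the 12 mitotic-gene cells. The 9 red cell markers summed to 2416 and 5708 CPM, with Hbb-bs the most abundant. The 12 alveolar fibroblast markers summed to 1378 and 2911 CPM, and to 8615 CPM in the Gli1_HHIPCKO mitotic-gene cell. The 11 vascular smooth muscle markers went the other way, at 23977 and 12645 CPM, mostly from Eln. The part of these markers in the mitotic difference was not tested. Ccnb1 gave 25 UMIs in 6 control cells and 0 UMIs in Gli1_HHIPCKO, at least 7.07-fold lower in UMIs against a floor of 3 counts. That bound treats UMIs of the same cell as separate counts, and the 6 cells behind it allow a much weaker bound.

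In the other classes, adventitial fibroblast-like cells aside, the mitotic sums were small. The AT2-like sum was 27.5 CPM in the control and 13.8 CPM in Gli1_HHIPCKO, with Prc1, a spindle midzone protein gene, at 9.69 and 5.24 CPM (log2 ratio −0.89, interval −1.28 to −0.49). Within the mostly control AT2-like cluster the Prc1 ratio was −0.53, short of 1.5-fold, and in the Lcn2-led cluster Prc1 had under 100 UMIs. The alveolar fibroblast-like sum was 26.5 and 22.7 CPM (−0.22), and the pericyte-like sum 21.7 and 25.9 CPM (0.25). Cenpa, the centromere histone gene, went the other way in alveolar fibroblast-like cells, at 7.21 and 13.3 CPM (0.88, interval 0.09 to 1.77). The ALMF-like sum was 43.5 and 26.7 CPM (−0.70, interval −1.50 to 0.02) and the DMF-like sum 54.4 and 21.1 CPM (−1.37). In the DMF-like class Mki67 made up 52.2% of the control sum.

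Mki67, which encodes the Ki-67 protein that coats mitotic chromosomes and is the usual marker of dividing cells (ENSMUSG00000031004, GRCm38 chromosome 7, 135689784 to 135716361), stood apart from the other mitotic genes in the myofibroblast group. There it was found in 187 of 2841 control cells (6.58%) and 62 of 2736 Gli1_HHIPCKO cells (2.27%), at 26.1 CPM (22.8 to 29.8) and 7.71 CPM (5.97 to 9.81). The log2 ratio was −1.76 (interval −2.18 to −1.35), and moved between −1.83 and −1.61 over the other settings tried. In DMF-like cells it was −1.77 (−2.30 to −1.25), and −0.82 at a clustering resolution of 0.5. Within the 2 clusters of the DMF-like class a difference was not detectable, since each has few cells of 1 library. In the mostly Gli1_HHIPCKO cluster the control cells were also shallower, at a median of 1043 UMIs against 2767. Mki67 was found in 3 of 121 control and 41 of 1889 Gli1_HHIPCKO cells of the mostly Gli1_HHIPCKO cluster (2.48% and 2.17%; log2 ratio −0.91, interval −2.55 to 1.42), and in 90 of 1329 and 1 of 40 cells of the mostly control one (−1.38, interval −6.70 to 1.13). The ratio was of like size to that of the whole group in the Socs3-led cluster, which had 458 control and 595 Gli1_HHIPCKO cells, with 40 and 15 UMIs (−1.90, interval −2.86 to −1.01). In pericyte-like cells Mki67 was found in 1.18% and 1.05% of cells, at lower depth, so the control myofibroblast share lay above that background.

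These Mki67 transcripts came without the rest of the mitotic set. Of the Mki67-positive control myofibroblasts, 5.35% (2.59 to 9.61%) had a UMI of another mitotic gene, against 4.94% of the Mki67-negative ones. In Gli1_HHIPCKO the values were 3.23% (0.393 to 11.2%) and 3.66%. In this group the shares with and without Mki67 thus lay within each other's counting error. Immune, mesothelial-like and AT2-like cells differed from this. Another mitotic gene was present in 97.5% and 95% of Mki67-positive immune cells, against 25.2% and 19.4% of the negative ones. In the red cell lineage it was present in 89.7% and 96.9% of the positive cells, but also in 78.4% and 46.1% of the negative ones. It was present in 68.8% of 16 Mki67-positive control mesothelial-like cells, against 6.57% of the negative ones, and in 45.0% of 20 control AT2-like ones, against 7.97%. Of the 220 Mki67 UMIs in control myofibroblasts, 217 lay outside mitotic-gene cells.

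**Figure D2:**
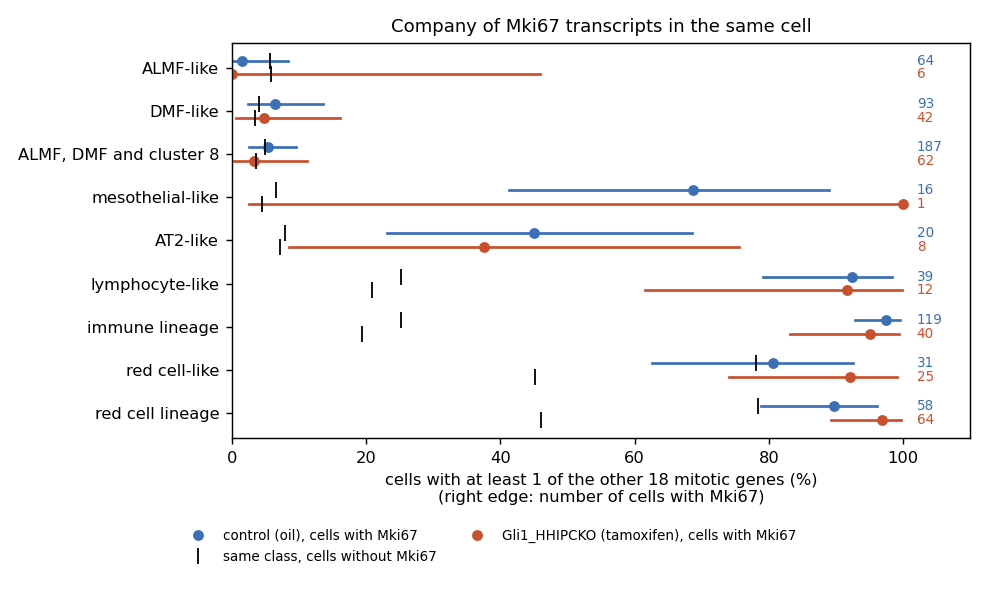
Share of cells (percent) with at least 1 other mitotic gene, among cells with an Mki67 UMI (points, with 95% Clopper-Pearson intervals) and without one (black ticks), by cell class and library. Figures at the right edge give the number of cells with Mki67. In the myofibroblast group the control shares are 5.35% and 4.94%, whereas in immune cells the share with Mki67 is 97.5%.

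The replication list holds the helicase subunits Mcm2 to Mcm7, the sliding clamp Pcna, the ribonucleotide reductase genes Rrm1 and Rrm2, and the thymidylate genes Tyms and Tk1. In AT2-like cells, the class with most of these genes measured, the summed replication genes were at 100 CPM in the control and 73.4 CPM in Gli1_HHIPCKO (log2 ratio −0.45, interval −0.56 to −0.34). Rrm1, the large subunit of the enzyme that makes deoxyribonucleotides (ENSMUSG00000030978, chromosome 7), was at 19.6 and 7.99 CPM (−1.30, interval −1.60 to −1.0). The ratio was −1.42 in the larger control AT2-like cluster and −1.15 in the Lcn2-led one. Mcm2 was at 4.27 and 2.26 CPM (−0.91) and Mcm6 at 8.87 and 5.01 CPM (−0.83). Pcna did not follow, with a log2 ratio of 0.24 in the class. It was −0.11 (interval −0.47 to 0.23) in the mostly control cluster, where all 6 measured replication genes were below 0, and 0.45 (0.07 to 0.84) in the Lcn2-led one.

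AT2-like cells with at least 3 of the 11 replication genes numbered 62 of 2970 in the control (2.09%, 1.60 to 2.67%) and 20 of 2805 in Gli1_HHIPCKO (0.713%, 0.436 to 1.10%). At equal depth the counts were 14 of 2857 and 1 of 2745. Nearly all the control cells of this kind lay in the cluster that is mostly control, 57 of 2406, where Gli1_HHIPCKO had 1 of 860. In the Lcn2-led cluster the counts were 5 of 564 and 19 of 1945, shares of 0.887% and 0.977%. The difference in this share is thus seen in 1 of the 2 AT2-like clusters.

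In the mesenchyme the replication genes as a sum were close between the libraries, at 134 and 127 CPM (log2 ratio −0.07), and in the myofibroblast group at 132 and 137 CPM (0.05). Some genes differed within that level sum. In the myofibroblast group Mcm6 was at 6.05 CPM in the control and 9.35 CPM in Gli1_HHIPCKO (0.63, interval 0.10 to 1.16), opposite in sign to AT2-like cells, and moved between 0.50 and 0.81 over the other settings. Mcm3 was at 8.18 and 11.2 CPM there (0.46, interval −0.01 to 0.92), short of 1.5-fold and within counting error of 0. In ALMF-like cells Mcm7 was at 36.5 CPM in the control and 19.3 CPM in Gli1_HHIPCKO (−0.92, interval −1.87 to −0.08), while Pcna was at 27 and 43.1 CPM (0.67, interval 0.01 to 1.31). Over the other settings tried these ratios moved between −0.92 and −0.23 and between 0.20 and 0.68. In alveolar fibroblast-like cells Rrm1 was at 10.6 and 18.1 CPM (0.77, interval 0.11 to 1.5), opposite in sign to AT2-like cells. Mcm4, with ratios in 5 of the 7 classes, ran from −0.27 to 0.24 and changed sign between settings in 4 of them. Mesothelial-like cells were lower in the sum, at 182 and 117 CPM (−0.64), and cells with at least 3 replication genes were 14 of 305 and 2 of 311.

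The D-type cyclins and their kinases were detected in all 7 classes and made up most of the listed UMIs outside blood. Ccnd2 (ENSMUSG00000000184, chromosome 6), a cyclin that growth signals induce in many cell types, was lower in Gli1_HHIPCKO in 6 of the 7 classes by point value. In ALMF-like cells it was at 85.2 CPM in the control and 28.2 CPM in Gli1_HHIPCKO (log2 ratio −1.59, interval −2.35 to −0.92). In alveolar fibroblast-like cells it was at 39.0 and 16.2 CPM (−1.27, interval −1.69 to −0.84). In pericyte-like cells it was at 99.2 and 54.3 CPM (−0.87, interval −1.26 to −0.48). The ratio was −0.85 in mesothelial-like and −0.76 in adventitial fibroblast-like cells and −0.26 in AT2-like cells. The exception was the DMF-like class, at 21.8 and 23.3 CPM (0.10), where the value moved between −0.89 and 0.95 with the clustering and filter settings. Within the mostly Gli1_HHIPCKO cluster of that class Ccnd2 was lower past 1.5-fold. In the mostly control cluster it was not among the measured genes past 1.5-fold. For the joined myofibroblast group the Ccnd2 ratio was −0.98 (interval −1.23 to −0.73) and moved between −1.08 and −0.96.

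The other D-type cyclins did not share this pattern across classes. Ccnd1 was lower in Gli1_HHIPCKO in the myofibroblast group, at 12.0 CPM in the control and 5.38 CPM in Gli1_HHIPCKO (log2 ratio −1.16, interval −1.69 to −0.64). In AT2-like cells, the class in which it reached 100 UMIs, Ccnd1 was at 61.2 and 55.3 CPM (−0.15). Ccnd3 ratios ran from −0.40 in AT2-like to 0.40 in DMF-like cells. The kinase Cdk6 was between −0.25 and −0.07 in the 7 classes, and above 0 in some other setting in 5 of them, up to 0.24 in pericyte-like cells. Cdk4, the other kinase that the D-type cyclins activate, gave −0.09 among DMF-like and −0.33 among ALMF-like cells, and stood at 157 and 98.0 CPM in mesothelial-like cells (−0.68, interval −1.05 to −0.32).

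The E-type cyclins, which drive entry into S phase with Cdk2, were too sparse for ratios by class. Ccne1 gave 65 UMIs in the control and 70 in Gli1_HHIPCKO over all cells (log2 ratio −0.16), of which 27 and 16 lay in immune cells and 22 and 44 in the red cell lineage. Ccne2 gave 58 and 48 UMIs (−0.54). In the mesenchyme Ccne1 gave 13 and 6 UMIs and Ccne2 11 and 7.

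Stmn1, Hmgb2 and Lmnb1 are tied to the cycle less tightly: Stmn1 encodes a protein that destabilises microtubules, Hmgb2 a chromatin protein that bends DNA, and Lmnb1 lamin B1 of the nuclear envelope. Hmgb2 (ENSMUSG00000054717, chromosome 8) was higher in Gli1_HHIPCKO in most mesenchymal classes. In alveolar fibroblast-like cells it was at 19.2 CPM in the control and 50.4 CPM in Gli1_HHIPCKO (log2 ratio 1.39, interval 0.92 to 1.90). In pericyte-like cells it was at 17.4 and 52.3 CPM (1.59, interval 0.89 to 2.36), and in DMF-like cells at 17.3 and 39.2 CPM (1.18, interval 0.77 to 1.60). Within the 2 clusters of the DMF-like class a difference was not detectable. In the mostly Gli1_HHIPCKO cluster Hmgb2 had 8 UMIs in the control and 210 in Gli1_HHIPCKO (−0.07, interval −1.07 to 1.16), and in the mostly control one 58 and 2 UMIs, too few for a ratio. At a clustering resolution of 0.5, where the DMF-like class is made almost wholly of Gli1_HHIPCKO cells, the DMF-like ratio was 0.14, but the myofibroblast group as a whole stood at 1.07 and moved between 1.00 and 1.16. AT2-like cells were at 47.6 and 74.6 CPM (0.65, interval 0.51 to 0.78). The ratio was −0.39 in mesothelial-like cells, where it reached 0.03 in 1 other setting, and −0.25 in immune cells. Summed over all cells Hmgb2 gave −0.01, with immune and red cell lineages supplying 60.6% of its control and 33.4% of its Gli1_HHIPCKO UMIs.

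Stmn1 (ENSMUSG00000028832, chromosome 4) differed most in AT2-like cells, among the classes where it reached 100 UMIs. It was at 59.4 CPM in the control and 24.3 CPM in Gli1_HHIPCKO (log2 ratio −1.29, interval −1.47 to −1.12), in 23.6% and 12.9% of cells. The difference was present in both AT2-like clusters, at −1.34 and −1.36, although they take unequal shares of the libraries. It was −0.43 in DMF-like and −0.05 in alveolar fibroblast-like cells. Lmnb1 was at −0.52 in the myofibroblast group, −0.03 in AT2-like cells, and at 102 and 61.0 CPM in mesothelial-like cells (−0.74).

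**Figure D3:**
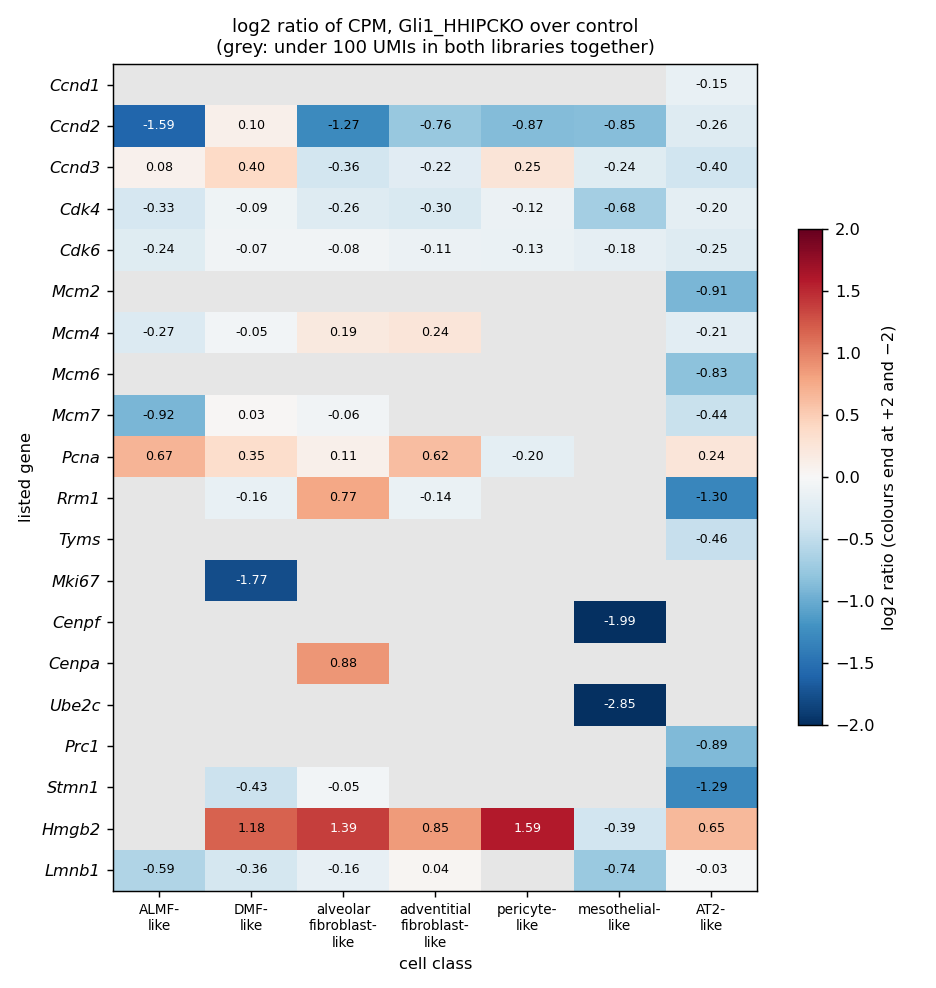
Log2 ratio of CPM, Gli1_HHIPCKO over control, for the listed genes with at least 100 UMIs over both libraries in a class, by gene and cell class. Ccnd2 is at −1.59 in ALMF-like cells and Hmgb2 at 1.59 in pericyte-like cells, and AT2-like cells are at −1.29 for Stmn1 and −1.30 for Rrm1.

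The share of cells with at least 3 of all 40 listed genes gave a different picture from the mitotic share. It was 25.3% in control and 22.1% in Gli1_HHIPCKO mesenchymal cells and 32.5% and 34.2% in AT2-like cells, and thinning to 2000 UMIs brought these to 11.5% and 8.52% and to 5.25% and 4.44%. In ALMF-like cells it was 35.3% (32.2 to 38.4%) and 25.0% (19.3 to 31.4%), and 16.6% and 8.76% after thinning. In mesothelial-like cells it was 39.0% and 22.5%, and 15.9% and 7.81% after thinning. The airway cluster was at 53.4% and 44.7%, and pericyte-like cells at 17.3% and 18.4%. Much of this share is made of genes that resting cells also express. Of the myofibroblasts with at least 3 listed genes, 74.8% in the control and 87.9% in Gli1_HHIPCKO had no mitotic gene at all, and 81.0% and 83.5% had Cdk4. In immune cells with at least 3 listed genes, 27.7% and 39.4% had no mitotic gene.

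Counted by class, the listed genes went in both directions. A gene is counted as higher or lower when its CPM ratio passed 1.5-fold, and the same count over all genes with at least 100 UMIs in the class is the background. In AT2-like cells 1 of 16 measured listed genes was higher and 5 were lower (Stmn1, Rrm1, Mcm2, Mcm6 and Prc1), where 4.47% of 9803 genes were higher and 3.49% lower. The listed median was −0.33 against 0.01 for all genes. Within the mostly control AT2-like cluster Stmn1, Rrm1, Mcm6 and Mcm4 were lower, and within the Lcn2-led one Stmn1 and Rrm1. Prc1 was thus not called in either cluster. In mesothelial-like cells 0 of 8 were higher and 5 lower, against 7.9% and 5.2% of 3809 genes, with medians of −0.71 and 0.04. In ALMF-like cells 1 of 8 was higher (Pcna) and 3 lower (Ccnd2, Mcm7 and Lmnb1), against 5.7% and 6.11% of 6118 genes, with medians of −0.30 and 0.00. 

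In alveolar fibroblast-like cells 3 of 12 were higher (Hmgb2, Rrm1 and Cenpa) and 1 lower (Ccnd2), against 6.32% and 5.41% of 8745 genes. Without likely doublets this class was smaller and of the 4 genes Hmgb2 alone reached 100 UMIs, with a log2 ratio of 1.5, while the log2 ratios of Ccnd2, Cenpa and Rrm1 were −1.04, 0.82 and 0.54. In DMF-like cells 1 of 12 was higher (Hmgb2, though not in the 1 of its 2 clusters that gave a ratio) and 1 lower (Mki67), against 5.89% and 4.65% of 8988 genes, with a listed median of −0.06 against 0.01. In adventitial fibroblast-like cells 2 of 9 were higher (Pcna and Hmgb2) and 1 lower (Ccnd2), against 6.72% and 4.16% of 7186 genes. In pericyte-like cells 1 of 6 was higher (Hmgb2) and 1 lower (Ccnd2), against 5.19% and 2.71% of 5650 genes. The share of listed genes past 1.5-fold was above that of all genes in both directions in 6 of the 7 classes, in most cases resting on 1 gene, and in mesothelial-like cells in the lower direction alone.

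Other genes of the cycle were counted in the same way in ALMF-like, DMF-like, alveolar fibroblast-like and AT2-like cells. The shares of all genes higher and lower were 5.7% and 6.11% in ALMF-like and 5.89% and 4.65% in DMF-like cells. They were 6.32% and 5.41% in alveolar fibroblast-like and 4.47% and 3.49% in AT2-like cells. Of the E2F and retinoblastoma family genes, 5, 5, 5 and 7 were measured in that order, and Rbl2, the gene of the p130 protein that keeps resting cells out of the cycle, was the only gene of those measured past 1.5-fold in any of the 4 classes. It was higher in ALMF-like cells (log2 ratio 0.78) and AT2-like cells (0.64), and stood at 0.38 in DMF-like and 0.54 in alveolar fibroblast-like cells. Further S phase genes, listed apart from the 40, gave 0 higher and 1 lower of 11 in AT2-like cells (Hells). Of these 11, 9 were below 0, where the median log2 ratio over all genes of the class was 0.01. They gave 2 higher of 6 in DMF-like cells (Usp1 and Gmnn), 1 lower of 4 in ALMF-like cells (Cdca7), and none of 3 in alveolar fibroblast-like cells. Further G2 and M phase genes gave 2 lower of 8 in AT2-like cells (Cks1b and Cks2) and none of 4 in each of the other 3 classes. Of 5 further chromatin and tubulin genes in ALMF-like cells, 1 was lower, H2afx, with log2 ratios of −0.82 there, −0.57 in DMF-like, −0.79 in alveolar fibroblast-like and −0.32 in AT2-like cells. Tmpo was the only one of those 5 higher past 1.5-fold in these classes, in alveolar fibroblast-like cells. Hells, Usp1, Gmnn, Cdca7, Cks1b, Cks2 and Tmpo are named after their values were seen.

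The inhibitors of the cyclin-dependent kinases hold cells out of the cycle, and Cdkn1a, the p21 gene, was higher in Gli1_HHIPCKO in all 4 of these classes. It was at 73.6 CPM in the control and 279 CPM in Gli1_HHIPCKO in ALMF-like cells (log2 ratio 1.92), at 167 and 257 CPM in DMF-like cells (0.62), at 28.9 and 143 CPM in alveolar fibroblast-like cells (2.31), and at 66.5 and 198 CPM in AT2-like cells (1.57). Within the DMF-like class Cdkn1a was higher past 1.5-fold in the mostly control cluster and lower in the mostly Gli1_HHIPCKO cluster, so that its direction there depends on how the class is drawn. Cdkn2d, an inhibitor of Cdk4 and Cdk6, was lower past 1.5-fold in ALMF-like cells (−0.61, interval −1.29 to 0.02) and DMF-like cells (−0.65, interval −0.95 to −0.36). Its ratios in alveolar fibroblast-like and AT2-like cells, −0.31 (interval −0.81 to 0.21) and −0.18 (−0.47 to 0.10), were within counting error of 0. Cdkn2c was at −0.82 in DMF-like cells. Cdkn2a, a gene of cell senescence, had 0 UMIs in the 4 classes, and Cdkn1b was higher past 1.5-fold in AT2-like cells alone of the 4.

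To see what else marked the mitotic-gene cells, genes outside the list were ranked by their mean CPM in those cells over that in cells with no mitotic gene, in both libraries. Of 5837 genes compared, the top 15 were replication-dependent histone genes such as Hist1h3b and Hist1h2bk, division genes such as Cdca5, Ska1, Kif18b, Cep55, Depdc1a and Depdc1b, the DNA repair gene Neil3, the cohesin gene Esco2, and Hemgn, a gene of red cell precursors. Hist1h3b was detected in 44.1% of control and 56.2% of Gli1_HHIPCKO mitotic-gene cells, and Esco2, which acetylates cohesin in S phase, in 41.9% and 51.2%. Hemgn was in 16.6% and 48.8%. The ranking thus returned genes of S phase and mitosis, together with a red cell gene that was found in more of the Gli1_HHIPCKO mitotic-gene cells, where 65 of 121 were of the red cell lineage.

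The 40 genes lie on 16 chromosomes of GRCm38, with 7 on chromosome 2 and 6 on chromosome 7. The closest 2 are Tk1, which ends at base 117826092 of chromosome 11, and Birc5, which starts at 117849251. Some promoters of the 40 genes share short sequences, though those of Tk1 and Birc5 held none of the 4 motifs searched. Promoter sequences from RefSeq (GRCm38.p6), from 250 bases before to 50 after the gene start, matched 31 of the 40 by symbol. The letters TTTGAA, the form of the cell cycle genes homology region bound by the MuvB complex, were present on either strand in 11 of 16 mitotic promoters (68.8%), 1 of 10 replication promoters (10.0%) and 18.1% of 27025 promoters. CCAAT, bound by the factor NF-Y, was present in 14 of 16 (87.5%), 8 of 10 and 37.9%. An E2F motif form, TTTCCCGC, was in 0 of 16 mitotic and 2 of 10 replication promoters (Mcm3 and Mcm7) and in 1.11% of all, and the form TTTGGCGC in 0 of 16, 3 of 10 (Mcm3, Mcm5 and Mcm6) and 0.537%. None of the 3 matched promoters of D-type cyclins and kinases held any of the 4 motifs. In the listed promoters no motif overlapped another, and a match describes letters, not binding. TTTGAA was thus more frequent in the mitotic than in the replication promoters, and CCAAT more frequent in both than in all promoters.

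Stretches of 120 bases of 3 mitotic promoters are shown, all read on the minus strand of GRCm38 (RefSeq), because Mki67 was detected more widely than Cdk1 and Top2a (in 475, 160 and 165 control cells) while all 3 promoters hold TTTGAA and CCAAT. Capitals mark TTTGAA or its reverse complement TTCAAA, and CCAAT or its reverse complement ATTGG. The Cdk1 and Top2a stretches hold both motifs, and the Mki67 stretch holds TTTGAA, with the CCAAT of that promoter outside the 120 bases shown.
Cdk1, chr10:69352913-69353032: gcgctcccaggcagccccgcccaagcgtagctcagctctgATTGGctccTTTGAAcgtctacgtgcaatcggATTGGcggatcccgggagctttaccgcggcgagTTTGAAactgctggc
Top2a, chr11:99024190-99024309: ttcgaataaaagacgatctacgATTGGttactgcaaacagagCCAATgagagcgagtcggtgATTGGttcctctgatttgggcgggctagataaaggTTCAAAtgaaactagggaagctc
Mki67, chr7:135716380-135716499: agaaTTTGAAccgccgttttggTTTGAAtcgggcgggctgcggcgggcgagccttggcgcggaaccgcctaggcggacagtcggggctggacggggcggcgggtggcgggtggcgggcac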

How the data were processed

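The authors deposited, for each of 2 libraries, a table of raw UMI counts per gene and called cell, made with Cell Ranger on mm10 and not filtered further. The file headers name version 6.1.0 and the labels 3.1.0, and the labels and the study differ on whether the kit was a 3′ or a 5′ kit and on the sequencer, which was not settled here. The filter passed cells of 200 to 6000 genes whose mitochondrial share was at most 10%. Both libraries were clustered together (2000 variable genes, 30 components, 20 neighbours, Leiden resolution 1), with 140 cell cycle genes held out of clustering and naming; histone genes were not held out. A cluster was named when its marker score reached 1, no other lineage passed 0.5, and the next class stayed under 0.65 of the best. It also needed at least 3 markers in at least 10% of cells and a marker among its 10 leading genes. These naming thresholds were set after the clusters had been seen. Of 33 clusters 20 were named, and 10.1% of control and 9.71% of Gli1_HHIPCKO cells had no lineage. Part of the fibroblast markers are signature genes that the study drew from these libraries.

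Levels are UMIs summed over a class per 1000000 UMIs of that class and library, with exact Poisson intervals. Ratios carry exact conditional binomial intervals and shares Clopper-Pearson intervals, all for counting error only, with a floor of 3 counts for zeros. Ratios are given for genes with at least 100 UMIs in both libraries together, and a gene past 1.5-fold was counted as higher or lower. No test was run, since each condition is 1 mouse. Shares were repeated with cells thinned to 2000 UMIs, leaving out 2206 control and 2383 Gli1_HHIPCKO cells that were shallower. Listed genes were all accounted for, other cycle genes were named when past 1.5-fold in at least 2 of the ALMF-like, DMF-like, alveolar fibroblast-like and AT2-like classes, and 15 genes off the lists by their ratio between mitotic-gene cells and cells with no mitotic gene. Cycle genes named outside this rule were Cdkn1b, Cdkn2a and Cdkn2c, and those given above as named after their values were seen. The members and lists were chosen with earlier results of these data known. The joined myofibroblast group, the pericyte background and the totals without blood lineages were chosen after the data were seen. The code was tested on simulated data. Alternatives covered filter, doublets, clustering, scaling, thinning and thresholds. Tools were Python 3.11.15, numpy 2.4.6, pandas 2.3.3, scipy 1.17.1, leidenalg 0.10.2, igraph 0.11.9 and matplotlib 3.10.9.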

Additional observations from a re-analysis of the deposited data

Results flagged for a closer look

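Rrm1, the large subunit gene of ribonucleotide reductase, had log2 ratios of opposite sign in 2 cell classes: 0.77 in alveolar fibroblast-like cells and −1.30 in AT2-like cells. It drew attention because the same comparison of Gli1_HHIPCKO with control went up in the former and down in the latter, with neither counting interval reaching 0. Without likely doublets the alveolar fibroblast-like ratio was 0.54, short of 1.5-fold, on 80 UMIs, fewer than the 100 asked of a ratio. The AT2-like ratio was then −1.42 on 314 UMIs. The difference between the classes was not tested, since each condition is 1 mouse.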

How the results depend on the processing

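Of 782 recomputed log2 ratios, 765 stayed within the counting interval of the reported value, 17 moved and 0 of the called ones changed sign. Of 60 recomputed shares of mitotic-gene cells 51 stayed and 9 moved, and of 80 recomputed shares with at least 3 of the 40 listed genes 37 stayed and 43 moved, mostly with the number of genes asked for and with thinning.

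Without the cells of the highest doublet scores, 1 listed gene passed 1.5-fold in alveolar fibroblast-like cells instead of 4, since the other 3 had under 100 UMIs there (Ccnd2 and Cenpa were still past 1.5-fold, Rrm1 was not), and 0% of mesothelial-like Gli1_HHIPCKO cells were mitotic-gene cells instead of 0.322%. That share was also 0% at resolution 2, and at resolution 0.5 the DMF-like count was 5 instead of 2. At 2-fold the counts were 1 in ALMF-like, 2 in alveolar fibroblast-like and 2 in AT2-like cells (4, 4 and 6 at 1.5-fold). With at least 30 UMIs they were 7 in ALMF-like and 10 in AT2-like cells. No share over all genes is given at these 2 thresholds, so these counts have no background to be read against. With at least 2 mitotic genes the share was 0.825% in control and 0.244% in Gli1_HHIPCKO mesenchymal cells, and 0.774% and 0.321% in AT2-like cells. With at least 3 mitotic genes and thinned to 1000 UMIs, the share was 0.249% in control and 0.0440% in Gli1_HHIPCKO mesenchymal cells. In AT2-like cells thinned to 2000 UMIs it was 0.105% in the control and 0% in Gli1_HHIPCKO, and thinned to 1000 UMIs 0.135% and 0%. For the rest the cause was not tested, other than that thinning leaves fewer UMIs and a lower gene number admits more cells.

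Resolution 0.5 gave no ALMF-like class. Class sizes depend on the clustering: 2970 control AT2-like cells became 660 with cycle genes kept and 815 under the stricter filter, and 212 ALMF-like Gli1_HHIPCKO cells became 1041 at resolution 2. Of the 40 genes, 20 had under 100 UMIs in each of the 7 classes, so no ratios by class are given for them, and only large differences could be seen at this depth.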

Other observations

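An unnamed cluster of the immune lineage, led by Car1, C1qb and C1qc, of 96 control and 57 Gli1_HHIPCKO cells held 33 and 11 mitotic-gene cells. Lymphocyte-like cells with at least 3 replication genes were 44 of 401 in the control (11%) and 4 of 180 in Gli1_HHIPCKO (2.22%), and mitotic-gene cells were 12.0% and 8.33%. Thinned to 2000 UMIs, the replication counts were 31 of 168 and 3 of 67, and the mitotic-gene counts 28 of 168 and 12 of 67.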
